A study of Mus musculus with 52 samples.

Results

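Interferon-stimulated and antigen presentation genes were followed in clones of a mouse kidney cell line that carry point mutations in 2 subunits of the ciliary motor dynein-2. The set held 41 named genes of 24421 gene symbols in the count tables. It was listed by name from known roles, with earlier results of these data known, and Gbp2, Gbp3 and Gbp7 are also on a list that the study drew from its own calls on these libraries. It covered 6 roles: signalling and transcription factors, RNA sensors and their regulators, antiviral effectors, ubiquitin-like and ADP-ribosylation enzymes, guanylate binding proteins and antigen presentation genes. All 41 symbols had a row in the count table of every library, although 7 had 0 counts in at least 1 clone.

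All cells were Cilia-APEX-IMCD3, a line derived from the mouse inner medullary collecting duct. By the study's methods, clones were grown from single sorted cells. Mutant clones had received the cytosine base editor BE4-Gam with a guide RNA against Wdr60 or Wdr34, which encode the dynein-2 intermediate chains. Control clones had received the editor with an empty guide vector, as the study's methods state. The sample titles of nonciliated control AB lack the prefix BE that all other nonciliated titles carry. They do not say whether its treatment differed or whether it grew from a single sorted cell. The ciliated state comprised 1 Wdr60 clone, 2 Wdr34 clones (clone 1 and clone 3) and 4 control clones named A4, D8, G7 and H12, starved of serum so that the cells form cilia, as the study's methods state, although the labels give 1 medium with serum for all samples. The nonciliated state comprised 1 Wdr60 clone, 1 Wdr34 clone and 4 control clones (AB, 1, 2 and 3). The Wdr60 edit was Ala911Val, and the Wdr34 edits of the study were Arg183Trp and Gly394Ser. By the study's account the Gly394Ser clone was not among the nonciliated cells, which leaves Arg183Trp for the nonciliated Wdr34 clone. The Gly394Ser clone also carries an unintended heterozygous glycine to aspartic acid change at the neighbouring residue. The study reports an unintended heterozygous synonymous change in the Wdr60 clone as well. The labels do not say which edit ciliated clone 1 or clone 3 carries. The study's account counts fewer clones over both states than the labels name, so a line may stand in both states under different names. The labels do not pair them, and clones are counted here by state, 13 in all, without independence between the states being known. Each of the 13 was sequenced as 4 libraries that were technical replicates, so p-values from libraries measure the spread between preparations of 1 clone together with the spread between clones. Each single mutant clone also confounds its genotype with its clonal origin. The nonciliated libraries were sequenced earlier, so state, serum starvation and sequencing time cannot be told apart.

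Interferons are secreted proteins that bind cell surface receptors. Type I and type III interferons act through a complex of STAT factors with Irf9 that binds the interferon-stimulated response element (ISRE) of target genes, and interferon gamma acts through STAT dimers that bind the gamma-activated site (GAS). The induced genes encode RNA sensors that detect viral nucleic acids, effectors that block viral RNA and protein synthesis, and the machinery that loads peptides on major histocompatibility complex (MHC) class I. Many of them are also expressed at a low level without infection, in kidney epithelium as elsewhere.

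The 52 libraries held 14816218 to 28084979 counts each, and 13476 to 14637 genes were detected per library. Levels are given in CPM, a count divided by the depth of its library after scaling by the trimmed mean of M values (TMM), as the mean of the 4 libraries of a clone. The epithelial marker Epcam was at 183 to 837 CPM in 11 clones but at 13.5 CPM in ciliated control G7 and 2.86 CPM in nonciliated control 2. Cdh1 was likewise at 14.4 and 4.22 CPM in these clones against 242 to 649 CPM elsewhere. The summed level of 14 collecting duct and renal epithelial markers was lowest in the same clones, at 1241 and 984 CPM, and was 1703 CPM in ciliated Wdr34 clone 3. Other markers on that list went the other way. Pax2 (309.5 and 276.9 CPM), Pax8 (419 and 299.9 CPM), Emx2 (116 and 94.9 CPM) and Hoxb7 (83.4 and 55.3 CPM) were highest of their state in G7 and control 2, and Tfcp2l1 (254 CPM) and Gata3 (2.87 CPM) were highest of all clones in clone 3. The collecting duct water channel Aqp2 was at or near 0 in all clones. Summed fibroblast markers were at 1.38 to 5.67 CPM in 12 clones and at 31.3 CPM in ciliated Wdr34 clone 3, nearly all of it Dcn. Of the leukocyte markers, Cd3e, Adgre1 and Tyrobp had 0 counts, and Ptprc reached no more than 0.90 CPM. Csf1r was at 16 to 49.2 CPM in nonciliated clones and 169 to 297 CPM in ciliated clones, and made up most of the summed leukocyte markers (26.7 to 65.5 CPM against 198 to 309 CPM). The transcripts of Wdr34 (21.7 to 49.5 CPM) and Wdr60 (20.4 to 30.8 CPM) were present in all clones, which does not check the labels because the edits change single bases.

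Some libraries stood apart from the others of their clone. H2-K1 was at 178 and 170 CPM in the first 2 libraries of the ciliated Wdr60 clone and at 271 and 261 CPM in the other two. In control G7, replicate 4 had 259 CPM of H2-K1 against 172 to 184 CPM in the others. Replicate 1 of nonciliated control AB had 345 CPM of H2-K1 against 236 to 255 CPM. Over all genes, replicate 1 of the nonciliated Wdr60 clone also stood apart. Its chi-square per degree of freedom to the others was 51.4 to 56.3, against 4.23 to 6.31 among them. For replicate 1 of ciliated control A4 it was 27.6 to 58.6, against 5.56 to 10.7. These libraries were kept, and the counts of calls without each replicate number are given with the alternatives.

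The promoters of the members that the results turn on are shown first. They span 250 bases before to 50 bases after the start site in RefSeq, genome build GRCm38.p6. Capitals mark matches to the ISRE core, spelled GAAA, any 2 bases and GAAA, which reads TTTC, any 2 bases and TTTC on the opposite strand, and, in Gbp7, also to the GAS letters TTC, any 3 bases and GAA. Both strands were searched. The genes Gbp7 (chr3:142530336-142550151), Gbp3 (chr3:142560016-142573213) and Gbp2 (chr3:142620663-142638008) lie in that order along the chromosome and are shown because their fold changes in 1 mutant clone were among the highest of the set. The genes Ifit3 (chr19:34583119-34588982) and Ifit1 (chr19:34640889-34650009) are shown because they lie in 1 gene cluster but differed in their order over clones. The start listed for Ifit3 lies inside its annotated span.
Gbp2, chr3:142620413-142620712, plus strand: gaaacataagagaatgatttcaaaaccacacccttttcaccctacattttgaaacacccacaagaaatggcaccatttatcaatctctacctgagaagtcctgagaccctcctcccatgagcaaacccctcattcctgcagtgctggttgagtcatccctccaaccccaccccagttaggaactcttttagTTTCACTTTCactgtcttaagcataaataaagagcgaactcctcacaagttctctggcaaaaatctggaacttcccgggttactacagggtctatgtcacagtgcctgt
Gbp3, chr3:142559794-142560093, plus strand: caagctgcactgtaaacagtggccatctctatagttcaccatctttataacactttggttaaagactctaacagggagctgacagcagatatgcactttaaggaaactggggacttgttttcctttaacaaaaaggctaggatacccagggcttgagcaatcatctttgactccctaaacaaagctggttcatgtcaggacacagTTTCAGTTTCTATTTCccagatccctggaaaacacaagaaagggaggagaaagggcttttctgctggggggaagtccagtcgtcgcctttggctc
Gbp7, chr3:142530086-142530385, plus strand: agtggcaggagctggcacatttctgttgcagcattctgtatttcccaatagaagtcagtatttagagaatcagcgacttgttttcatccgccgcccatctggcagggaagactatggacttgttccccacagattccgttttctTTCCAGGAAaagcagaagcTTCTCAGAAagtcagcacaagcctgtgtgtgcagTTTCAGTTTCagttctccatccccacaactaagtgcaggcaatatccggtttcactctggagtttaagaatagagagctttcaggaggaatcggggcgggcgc
Ifit3, chr19:34583279-34583578, plus strand: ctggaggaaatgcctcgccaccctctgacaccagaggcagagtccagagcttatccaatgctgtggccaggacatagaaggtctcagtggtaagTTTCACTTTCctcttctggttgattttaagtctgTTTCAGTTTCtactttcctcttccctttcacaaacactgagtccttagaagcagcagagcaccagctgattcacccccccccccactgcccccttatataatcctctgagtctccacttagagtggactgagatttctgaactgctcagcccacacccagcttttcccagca
Ifit1, chr19:34640639-34640938, plus strand: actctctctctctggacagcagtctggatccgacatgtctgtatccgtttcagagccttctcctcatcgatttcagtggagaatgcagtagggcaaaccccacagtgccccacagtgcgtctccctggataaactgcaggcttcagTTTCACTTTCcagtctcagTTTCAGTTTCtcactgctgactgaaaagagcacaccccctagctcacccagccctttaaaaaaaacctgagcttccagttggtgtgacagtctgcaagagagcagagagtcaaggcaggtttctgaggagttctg

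A promoter window was at hand for 31 of the 41 members. The ISRE core was in at least 1 window of 14 of these members, against 3.44% of 32851 promoters of the same length. The GAS letters were in 6 members (Bst2, Gbp7, Ifi35, Ifit2, Irf1 and Oas1a), against 8.3% of all promoters. Members are counted by gene over their 36 windows, while the shares of all promoters are by window, so the units differ. The core began 59 bases before the start in Gbp2, 53 in Gbp7, and 45 and 39 in the printed window of Gbp3, where the 2 matches overlap. A window around another start of Gbp3 (chr3:142560106-142560405) held 0 matches of either kind. In Ifit3 the matches began 156 and 122 bases before the start, and in Ifit1 104 and 85. A match is a string of letters and not a tested binding site.

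The median member ranged more widely between clones than the median gene. Of the 41, 36 reached 1 CPM in at least 1 clone and 19 did so in all 13, while Mx1, Mx2, Nlrc5, Oas1g and Zbp1 stayed under 1 CPM in every clone. The range of clone means of log2(CPM + 0.5) had a median of 2.47 over the members at 1 CPM, against 1.21 over all genes at that level. B2m, Trim25, Parp9 and Irf9 were below the latter. The range was smallest for B2m, the invariant light chain of MHC class I, which ran from 191 to 246 CPM. It was largest for Ifit3, whose protein acts with Ifit1 on foreign RNA, and which ran from 34.0 CPM in the nonciliated Wdr60 clone to 1238 CPM in ciliated control G7. Stat2 ran from 21.9 CPM in the nonciliated Wdr34 clone to 64.3 CPM in ciliated Wdr34 clone 3, and Irf9, its partner in the complex, from 8.65 to 19.3 CPM in the same clones. The RNA sensor Ddx58 (RIG-I) ran from 9.10 to 43.9 CPM, and Dhx58, the third of the RIG-I-like receptors, from 0.255 to 1.96 CPM. Isg15, the ubiquitin-like protein, ran from 1.81 CPM in nonciliated control 3 to 9.88 CPM in clone 3. The antiviral enzyme Rsad2 (viperin) was highest in control A4 at 2.05 CPM and in clone 3 at 1.97 CPM. The map of all 36 members shows that no clone was high or low for every member.

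**Figure D1:**
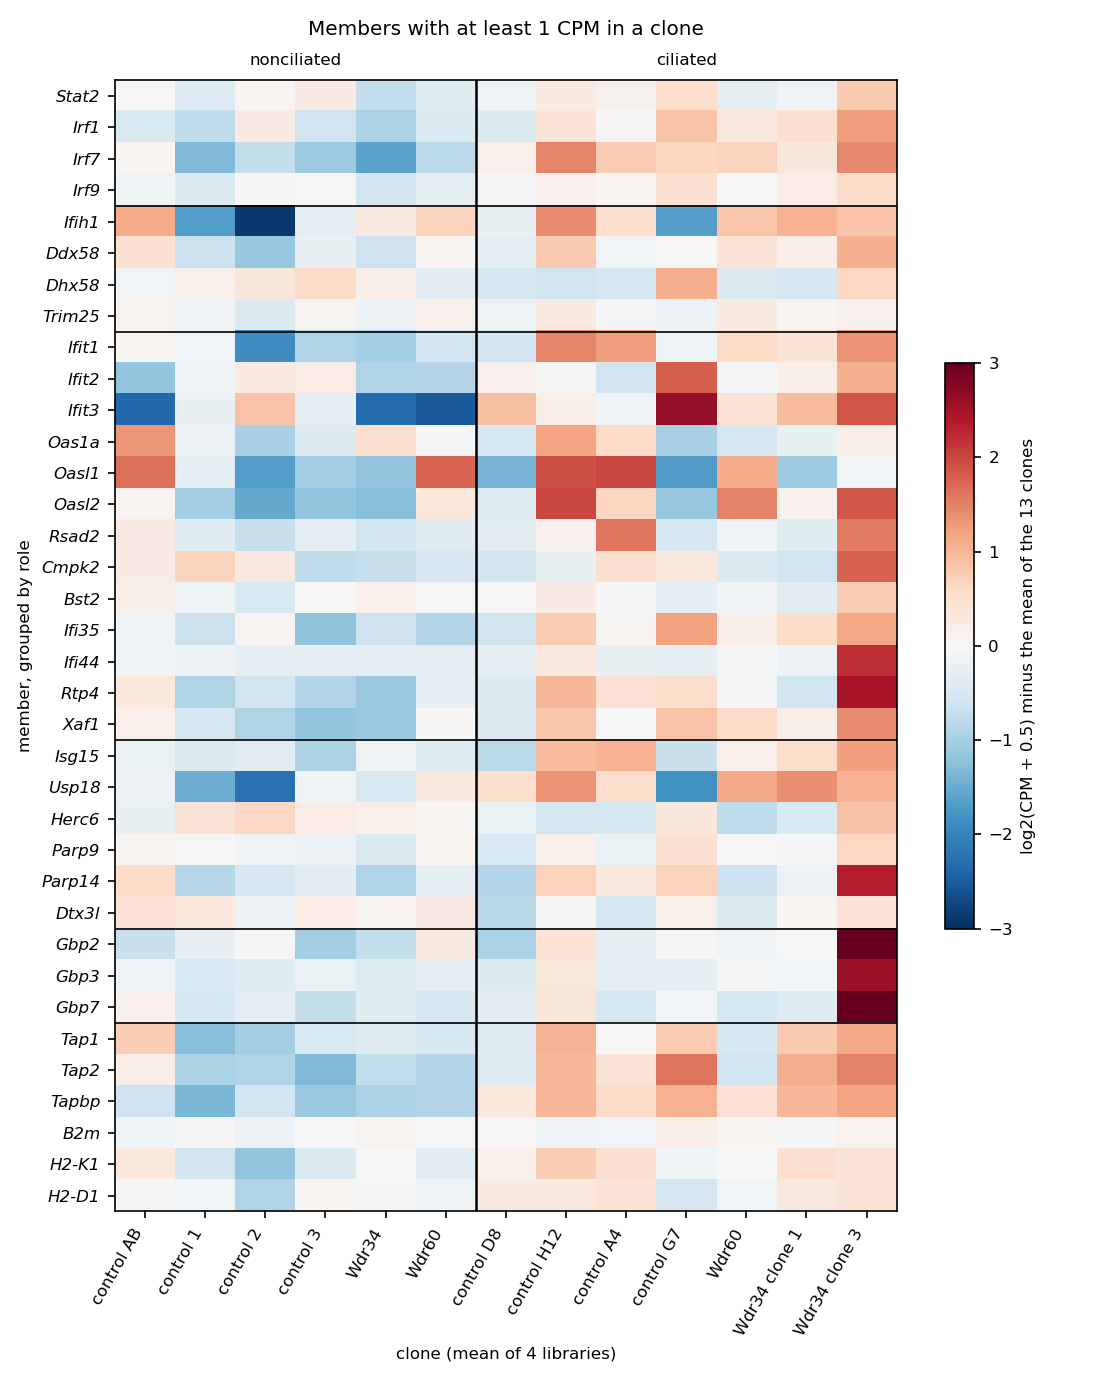
Level of each of the 36 members that reached 1 CPM, as log2(CPM + 0.5) of the clone mean minus the mean of the 13 clones; colours saturate at 3 in either direction, and lines part the roles and the states. The guanylate binding proteins stand out in ciliated Wdr34 clone 3, and Tapbp separates the states.

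The question of how the state relates to these genes was addressed in control clones. The peptide-loading genes Tapbp and Tap2, the factor Irf7 and 6 antiviral or regulatory genes rose in ciliated controls, and no member fell by the limits used. A gene was called when edgeR's quasi-likelihood test gave a Benjamini-Hochberg adjusted p under 0.05 over all genes and the log2 fold change was at least 1 in size. Of 30 members tested, 9 were called higher and 0 lower, against 6.29% and 3.99% of all genes, and 26 had a positive difference. With the clone as a random block (limma's voomLmFit) 5 were called higher, and with the 4 libraries of a clone summed to 1 sample 2 were. The shares of all genes above are from edgeR on single libraries, and those of these 2 fits are not given here. Another 11 members had an adjusted p under 0.05 and a smaller positive difference, while Dtx3l (-0.45) and Herc6 (-0.45) were on the other side of 0 at that threshold. In all, 20 members higher and 2 lower passed it, compared with 3700 and 3521 of 11856 genes. The median log2 difference was 0.68 over the members and 0.02 over all genes tested. In bulk RNA such as this, fewer cells with a high level and less RNA per cell cannot be told apart.

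Tapbp, or tapasin, bridges MHC class I to the peptide transporter. Its level was 216 CPM in G7, 209 in H12, 156 in A4 and 131 in D8, and 40.2, 48.4, 68.7 and 69.0 CPM in nonciliated controls 1, 3, AB and 2. The groups did not overlap, and the log2 difference was 1.66 (SE 0.12, adjusted p = 3.3e-13, edgeR). The mutant clones of each state were on the same side, at 142 to 240 CPM in the ciliated and 54.5 and 58.2 CPM in the nonciliated clones. Tap2, a subunit of that transporter, was at 15.2 CPM in G7, 9.87 in H12, 6.27 in A4 and 3.44 in D8, against 1.58 in control 3, 2.15 in control 1, 2.28 in control 2 and 5.5 in AB. Here D8 was below AB, so the clones overlapped, with a log2 difference of 1.60 (SE 0.28, adjusted p = 1.0e-05). The heavy chain gene H2-K1 was at 199 to 368 CPM in ciliated and 94.8 to 272 CPM in nonciliated controls and was not called.

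Irf7, a transcription factor that drives interferon genes, was the other member whose control clones did not overlap between states. It was at 2.6 CPM in D8, 3.93 in G7, 4.19 in A4 and 7.17 in H12, against 0.614 in control 1, 0.841 in control 3, 1.19 in control 2 and 2.36 in AB. The log2 difference was 1.84 (SE 0.26, adjusted p = 3.3e-07). The 2 members, Irf7 and Tapbp, whose ciliated clones were all above the nonciliated ones compare with 10.7% of all genes, and the 0 members below with 12.5%. In a 2-sided exact permutation test over the 4 and 4 clone means, both reached 0.0286, the smallest p that 70 splits can give, and no gene had an adjusted p under 0.05.

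The other called members overlapped between the states. Oasl2, a relative of the 2′-5′ oligoadenylate synthetases, was higher by 2.27 (SE 0.55, adjusted p = 0.00066), with ciliated clones from 0.292 CPM (G7) to 6.52 CPM (H12) and nonciliated clones from 0.0946 CPM (control 2) to 1.34 CPM (AB). Usp18, the protease that removes Isg15 from proteins and dampens receptor signalling, was higher by 1.58 (SE 0.52, adjusted p = 0.0091). Its level was lowest in the same 2 clones, 0.293 CPM in G7 and 0.0877 CPM in control 2. The effectors Ifit1 (1.46, SE 0.35, adjusted p = 0.00053), Ifit3 (1.47, SE 0.39, adjusted p = 0.0016), Rtp4 (1.40, SE 0.35, adjusted p = 0.0010) and Xaf1 (1.15, SE 0.25, adjusted p = 0.00021) complete the calls. Ifit1 was at 2.27 CPM in D8, 3.2 in G7, 9.22 in A4 and 10.5 in H12, against 0.588 in control 2, 1.65 in control 3, 3.31 in control 1 and 3.67 in AB, and Xaf1 at 1.8 in D8, 2.62 in A4, 4.99 in G7 and 5.02 in H12, against 0.871 in control 3, 1.13 in control 2, 1.64 in control 1 and 2.88 in AB. D8 and G7 for Ifit1, and D8 and A4 for Xaf1, were inside the nonciliated range. In the mutants Ifit1 was at 4.80, 5.6 and 9.65 CPM in ciliated and 1.53 and 2.19 CPM in nonciliated clones, and Xaf1 at 2.97, 4.09 and 7.61 CPM and at 0.914 and 2.65 CPM. The Ifit3 call was lost without G7 alone, with a difference of 0.52 and an adjusted p of 0.158 (edgeR). It was not lost when control 2 was left out as well. Usp18 was not called without H12 (1.08) or without control 1 (1.34), nor Xaf1 without H12 (0.96), G7 (0.96) or control 3 (0.94). Without AB, 15 members were called, all higher, with 1357 of 11930 genes called in either direction. When G7 and control 2, the clones low in Epcam, Cdh1 and keratins, were both left out, 9 members were called, with Isg15 in and Xaf1 out. The share of all genes called in that fit is not given here, so this count is not set against it. The 2 members called on summed libraries were Irf7 and Tapbp. Csf1r also differed in level between the states. Of the same list, Cd14 was at 10.8 to 26.9 CPM in ciliated and 8.15 to 14.3 CPM in nonciliated controls. Cd68 went the other way, at 1.04 to 3.86 CPM in ciliated and 2.44 to 4.55 CPM in nonciliated controls. The part of these markers in the result was not tested.

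**Figure D2:**
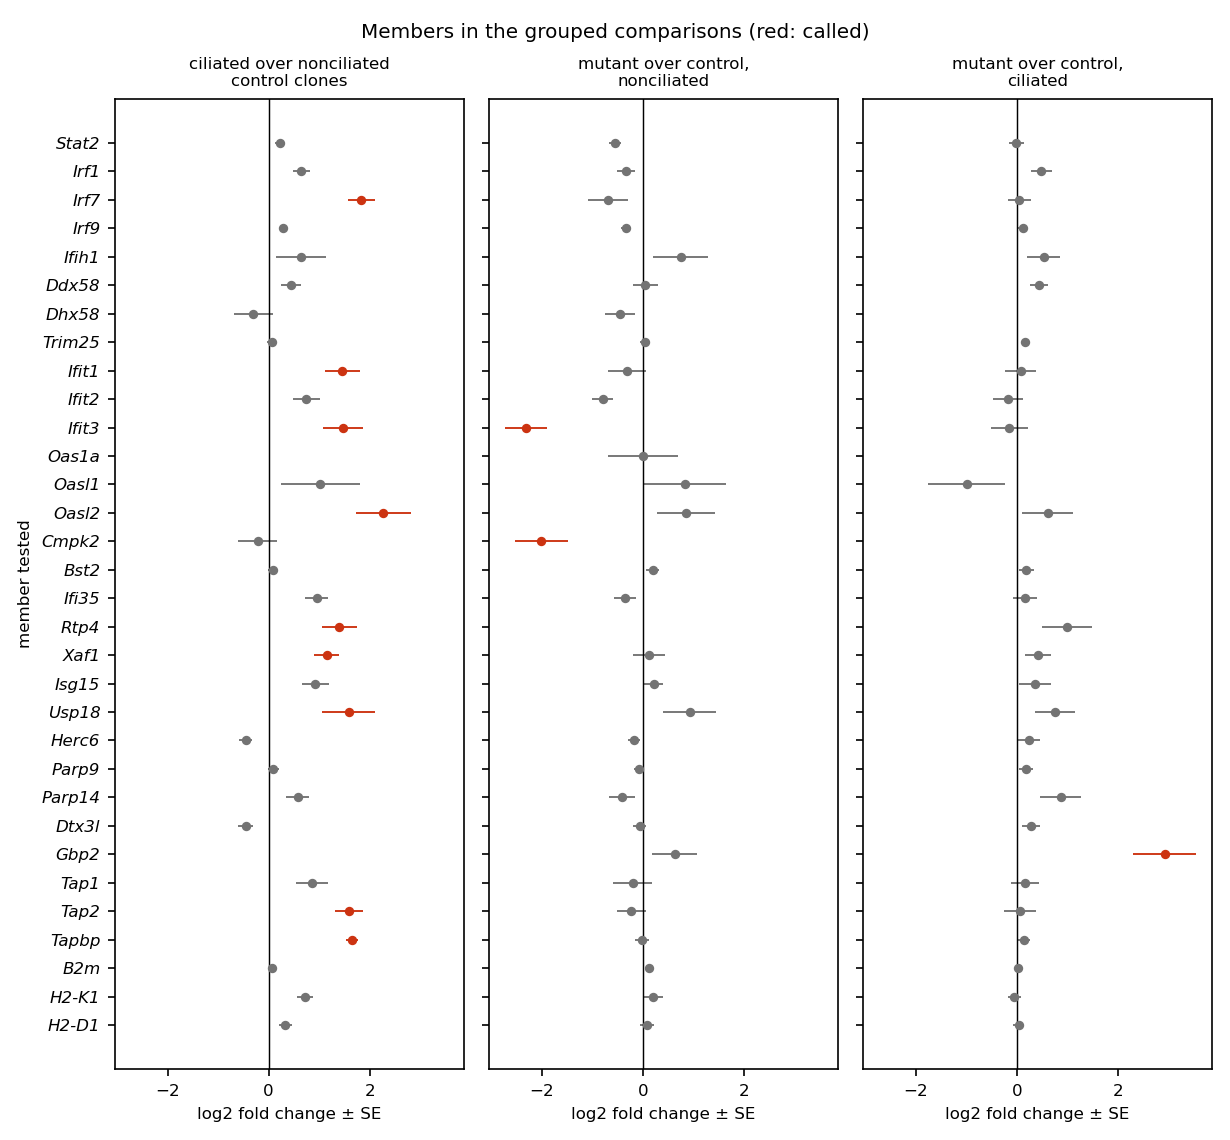
Log2 fold change with its standard error for every member tested in the 3 grouped comparisons, with called members in red. In the comparison of states 9 members are called, all to the right of 0, while Ifit3 and Cmpk2 are called lower in the nonciliated mutants and Gbp2 higher in the ciliated mutants.

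Other genes of the pathway were taken from lists of names and read in the fit of control clones. Of 26 other interferon-stimulated genes tested, 7 rose and 0 fell in ciliated controls, where 6.29% and 3.99% of all genes did, among them Lgals3bp (2.52, SE 0.34), the chemokine Ccl5 (1.94, SE 0.35) and the lysosomal thiol reductase Ifi30 (1.39, SE 0.11). Of 17 other antigen presentation genes, the nonclassical class I genes H2-Q4 (1.83) and H2-T23 (1.17) rose, and H2-T24 (-1.40) and the chaperone Calr (-1.04) fell. Of 25 interferon ligands, receptors and sensors tested, 0 were called by edgeR, and 5 higher and 4 lower had an adjusted p under 0.05, while 10 had an unadjusted p under 0.05, compared with 7637 of 11856 genes. Transcripts of interferons themselves were near absent. Of 10 ligand genes, Ifna1, Ifna2, Ifna4, Ifna5 and Ifnb1 had 0 counts in all 52 libraries, and the highest count of any ligand in a library was 3. The receptor chains were present in every clone, Ifnar1 at 97.4 to 183 CPM, Ifnar2 at 26.2 to 50.7 CPM and Ifngr1 at 21.2 to 34.2 CPM. The receptor chain for type III interferons, Ifnlr1, was at 9.81 to 52.6 CPM in 11 clones but at 0.544 CPM in G7 and 0.126 CPM in control 2.

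Clones of the same genotype and state differed widely. Among the 4 ciliated controls, 24 of 34 members tested were called as differing between clones, and among the 4 nonciliated controls 20 of 32, against 32.9% and 25.6% of all genes. The error of this test is the spread of technical replicate libraries alone. Most genes passed its threshold on p, with an adjusted p under 0.05 for 10525 of 12325 and 9926 of 12327 genes. The filter on low counts worked by clone in this test. A member high in 1 control clone alone could thus enter through that clone and then be called. Dhx58, for example, was at 1.96 CPM in G7 and 0.255 CPM in H12, and Rsad2 at 2.05 CPM in A4 and 0.102 CPM in G7. How many calls arose in this way was not counted, and the same filter applied to the shares of all genes. Called in both states were Cmpk2, Ddx58, Gbp2, Ifi35, Ifih1, Ifit1, Ifit2, Ifit3, Irf1, Irf7, Oas1a, Oasl1, Oasl2, Parp14, Rtp4, Tap1, Tap2, Usp18 and Xaf1. Dhx58, Dtx3l and Isg15 were called among ciliated but not nonciliated controls, and H2-K1 the other way round, without a test of the difference between states. Gbp7 and Rsad2 were called among ciliated controls and not tested among nonciliated ones. Control D8 was the lowest ciliated control for 17 of 29 members and the highest for 0, where 26.3% and 24.7% of all genes had it there. Control H12 was the highest for 14 members, against 22% of genes. Among nonciliated controls, AB was the highest for 17 of 31 members, against 27.5% of genes.

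Control G7 and nonciliated control 2 were at opposite ends for different members, and for all genes too. G7 was the highest ciliated control for 12 of 29 members (34.5% of all genes) and the lowest for 8 (32.5%), and control 2 the highest nonciliated control for 8 of 31 (31.2%) and the lowest for 13 (35.1%). Ifit3 was at 1238 CPM in G7 against 189 in A4, 223 in H12 and 369 in D8, and at 358 CPM in control 2 against 39.1 in AB, 162 in control 3 and 170 in control 1. Ifit2, which lies before it on chromosome 19 and encodes another RNA-binding effector, was at 502 CPM in G7 against 97.7 to 159, and at 178 CPM in control 2 against 64.6 to 169. Both were thus highest in G7 and in control 2 among the controls of their state.

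The RNA sensor Ifih1 (MDA5), which detects long viral RNA, was lowest in both of these clones. It was at 2.15 CPM in G7 against 6.57 in D8, 11.4 in A4 and 21.4 in H12, and at 0.621 CPM in control 2 against 2.08 in control 1, 6.30 in control 3 and 17.5 in AB. Oasl1, a relative of the oligoadenylate synthetases that restrains Irf7 translation, was at 0.0238 CPM in G7 and 0.0276 CPM in control 2, against 5.95 in H12, 6.26 in A4 and 4.83 in AB, with D8 at 0.153, control 3 at 0.317 and control 1 at 0.921. The synthetase Oas1a had 0 counts in G7 and in control 2 and was at 1.79 CPM in H12 and 2.07 CPM in AB. All 3 were lowest, or at 0, in the clones in which Ifit2 and Ifit3 were highest.

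Of 28 members tested in both states, 7 were highest in both G7 and control 2, against 18.4% of all genes, and 8 were lowest in both, against 20% of all genes. Beside Ifit2 and Ifit3, the first were Ifi35, Irf1, Irf9, Herc6 and Tapbp. Beside Ifih1 and Oasl1, the second were Oasl2, Usp18, H2-K1, H2-D1, Bst2 and Trim25, H2-D1 at 32.7 CPM in G7 and 24.6 CPM in control 2. The part of the low Epcam and Cdh1 or the high Pax2 and Pax8 of these clones in this order was not tested, and the labels do not say whether they are 1 line. Ifit3 may share reads with its near copy Ifit3b, which followed it from 13.8 CPM in AB to 554 CPM in G7, and how counting split them is not known. The same holds for Oas1a with Oas1g and for H2-K1 with H2-D1.

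**Figure D3:**
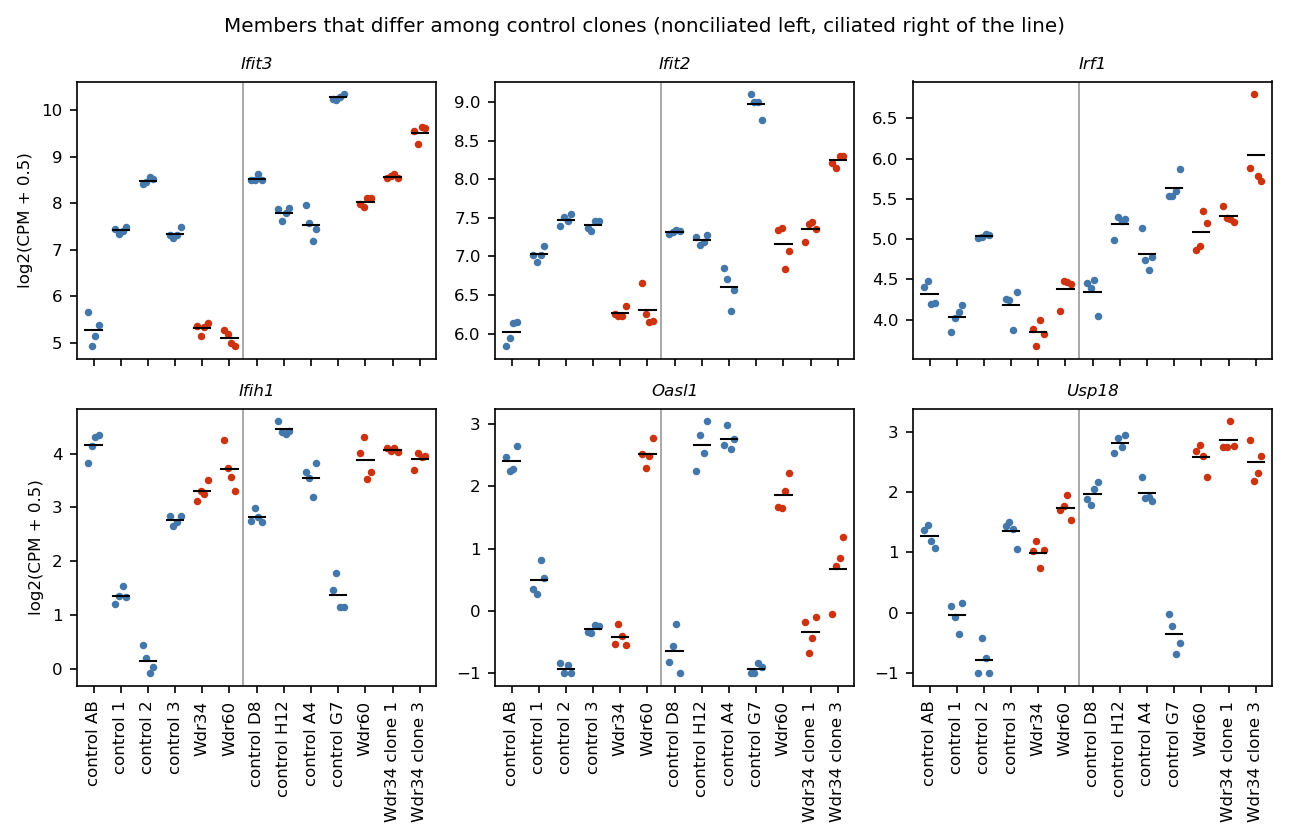
Level of Ifit3, Ifit2, Irf1, Ifih1, Oasl1 and Usp18 in each of the 52 libraries (points) as log2(CPM + 0.5), with the mean of each clone as a bar, nonciliated clones on the left. Ciliated control G7 and nonciliated control 2 are high for Ifit3 (1238 and 358 CPM) and low for Oasl1 (0.0238 and 0.0276 CPM).

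The mutant clones were then compared with the controls of their state. In nonciliated cells, Ifit3 and Cmpk2 fell and no member rose. Of 31 members tested, 0 were called higher and 2 lower, against 0.491% and 2.57% of all genes, with a median difference of -0.06 over the members. Ifit3 was at 34.0 CPM in the Wdr60 clone and 39.6 CPM in the Wdr34 clone, against 39.1, 162, 170 and 358 CPM in the controls. The Wdr34 clone thus lay above the control AB, although the fitted difference was -2.31 (SE 0.42, adjusted p = 0.00081, edgeR). Cmpk2, a mitochondrial nucleotide kinase, was at 0.108 CPM in the Wdr34 clone and 0.197 CPM in the Wdr60 clone, against 0.08, 0.655, 0.741 and 1.05 CPM in controls 3, AB, 2 and 1. Control 3 was lower than both mutants, and the difference was -2.0 (SE 0.53, adjusted p = 0.0132, edgeR). These levels are near the count floor, since 1 CPM stands for 15.6 to 21.1 counts in a nonciliated library.

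Ifit2 (-0.80), Stat2 (-0.55) and Irf9 (-0.32) also had an adjusted p under 0.05, with smaller differences. In all, 0 members higher and 5 lower passed that threshold, compared with 855 and 948 of 12012 genes. B2m was the only member whose mutant clone means were all above the controls, against 6.95% of all genes, and 0 were below, against 6.09%. Fitted alone, the Wdr34 clone had 0 members higher and 2 lower of 32 tested, against 0.275% and 1.97% of genes, Ifit3 (-2.20, SE 0.61, adjusted p = 0.026) and Cmpk2 (-2.48, SE 0.80, adjusted p = 0.049). The Wdr60 clone had 0 higher and 1 lower, against 0.986% and 2.43%, Ifit3 (-2.43, SE 0.62, adjusted p = 0.0148). These fits share the 16 control libraries. With the libraries of a clone summed, edgeR called no member in the grouped comparison and 2 had an unadjusted p under 0.05, and with the clone as a random block voomLmFit called none and 4 had one. These counts are not set against the shares of all genes, which are not given here for the 2 fits. Cmpk2 in the grouped comparison and Ifit3 in the Wdr60 clone lost their calls when replicate 2, 3 or 4 was left out, and both members in the Wdr34 clone when any replicate number was. Without AB, the control with the Ifit3 level of the mutants, 4 members were called higher and 3 lower of 30 in the Wdr60 clone, where 781 of 12236 genes were called in either direction.

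In ciliated cells, the guanylate binding protein Gbp2, a GTPase that attacks the vacuoles of intracellular pathogens, was the only member called in the 3 mutant clones together. Of 29 members tested, 1 was called higher and 0 lower, against 0.418% and 0.226% of all genes, while 24 had a positive difference with a median of 0.17. Gbp2 was at 0.711 CPM in the Wdr60 clone, 0.8 CPM in Wdr34 clone 1 and 14.1 CPM in Wdr34 clone 3, against 0.158, 0.586, 0.746 and 1.18 CPM in controls D8, A4, G7 and H12. Clone 3 alone was high. The log2 difference was 2.93 (SE 0.62, adjusted p = 0.0082, edgeR) with clone 3 and 0.15 (adjusted p = 0.87) without it. For 0 members were all 3 mutant clones above the 4 controls and for 0 all below, against 1.07% and 0.778% of all genes. Its call was lost when replicate 2, 3 or 4 was left out (adjusted p = 0.0985, 0.0727 and 0.0611). With libraries summed per clone edgeR called no member and 3 had an unadjusted p under 0.05, voomLmFit with the clone as a random block called none and 2 had one, and DESeq2 on single libraries called 4 (Gbp2, Gbp3, Gbp7 and Ifi44). The shares of all genes in these alternative fits are not given here, so these counts are not set against them.

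Wdr34 clone 3 carried this result. Against the ciliated controls, 10 of 36 members rose and 0 fell, compared with 3.64% and 2.16% of all genes. Gbp3 and Ifi44 passed the filter on low counts only through this clone, so they had to differ. Over the 34 members that passed it in the ciliated controls alone, a count chosen after seeing the data, 8 rose and 0 fell, against 2.38% and 2.19% of the genes that did. Of the 8, Gbp2 and Gbp7 are on the study's own list. Of the 34, 32 had a positive difference, and the median was 0.62. Clone 3 was the highest of the 7 ciliated clones for 15 of 29 members, against 15% of all genes, and the lowest for 0.

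Of the 3 guanylate binding proteins, Gbp2 and Gbp7 rose and had passed the filter in the controls alone. Gbp3, like Ifi44, entered the test through clone 3, so its values are given as description only. Gbp7 was at 11.4, 15.5, 10.4 and 11.5 CPM in the 4 libraries of clone 3, and at no more than 0.733 CPM in any other clone mean. Its difference was 4.91 (SE 0.45, adjusted p = 1.2e-07). Gbp3 was at 2.06, 6.05, 3.74 and 4.16 CPM in the libraries of clone 3 and at 0.393 CPM at most elsewhere (H12), with a difference of 4.62 (SE 0.56). Gbp2 was at 10.6, 23.2, 11.2 and 11.2 CPM, with a difference of 4.35 (SE 0.48, adjusted p = 2.0e-06). Replicate 2 was highest for all 3 genes, and every library of clone 3 was above every other clone mean. All 3 have the ISRE core in the windows printed above, as 14 of 31 members do. Reads of this family may be split between near copies.

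**Figure D4:**
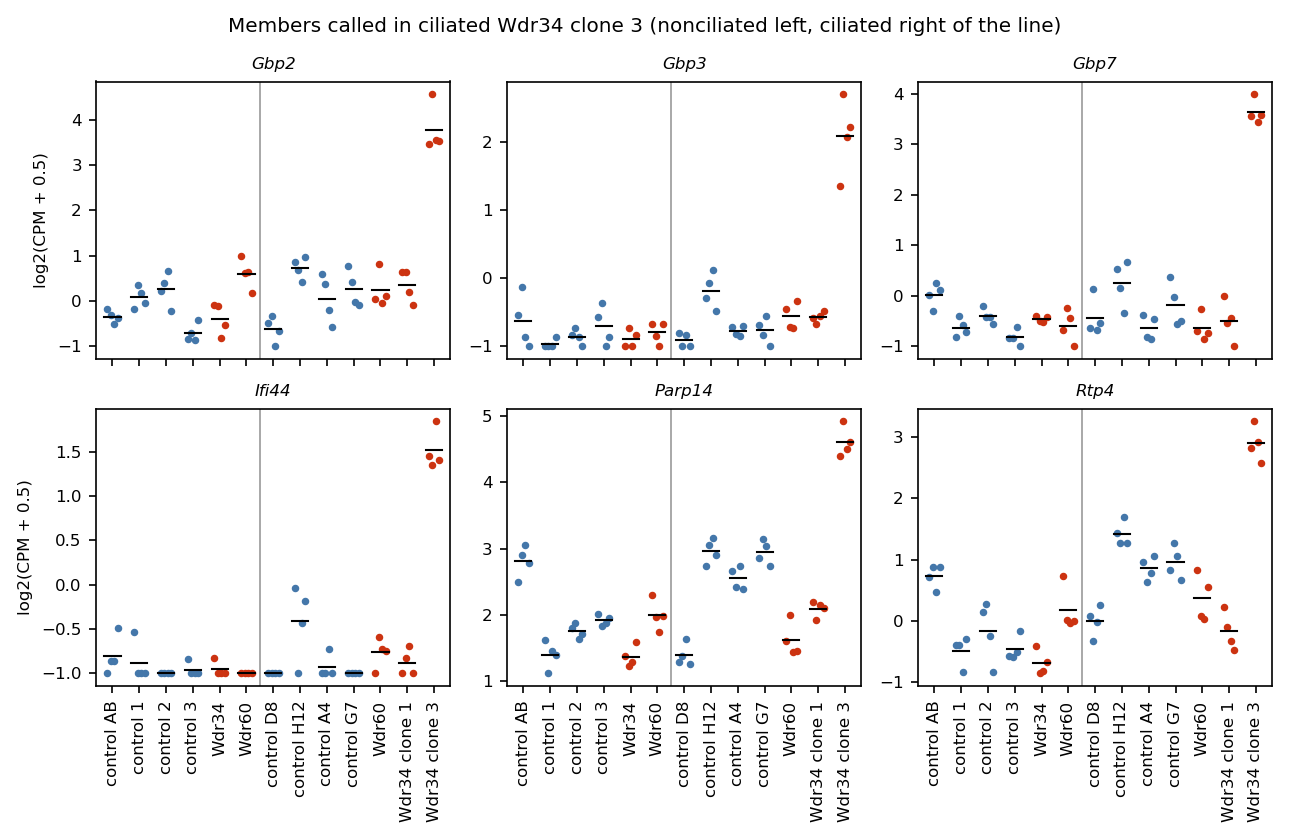
Level of Gbp2, Gbp3, Gbp7, Ifi44, Parp14 and Rtp4 in each of the 52 libraries (points) as log2(CPM + 0.5), with the mean of each clone as a bar, nonciliated clones on the left. In ciliated Wdr34 clone 3 the 4 libraries of Gbp7 lie at 10.4 to 15.5 CPM, and the clone means elsewhere do not exceed 0.733 CPM.

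The effectors called in clone 3 that passed the filter in the controls were Cmpk2 (2.35, SE 0.44, adjusted p = 0.00068), Rtp4 (2.33, SE 0.35, adjusted p = 6.4e-05) and Xaf1 (1.05, SE 0.33, adjusted p = 0.029). Ifi44, which entered the test through clone 3 and had a difference of 4.79 (SE 0.76), was at 2.05 to 3.09 CPM in the libraries of clone 3 and had 0 counts in D8 and G7. Rtp4, a chaperone of membrane receptors, was at 5.48 to 9.07 CPM in clone 3 against 0.509 to 2.19 CPM in the controls. Among the enzymes, Parp14, an ADP-ribosyltransferase, was at 20.6 to 29.9 CPM against 2.14, 5.40, 7.25 and 7.35 CPM in D8, A4, G7 and H12, a difference of 2.10 (SE 0.31, adjusted p = 5.7e-05). Herc6, the mouse ligase for Isg15, was at 32.8 to 40.0 CPM against control means of 13.3 to 24.8 CPM, with a difference of 1.03 (SE 0.20, adjusted p = 0.00087). Xaf1 was not called without any 1 of the 4 replicate numbers, D8 or A4, and Herc6 fell under the fold limit without replicate 3, H12 or A4. With the replicate number as a block, Xaf1 (adjusted p = 0.050) and Irf1 (under the fold limit, 0.997) lost their calls.

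Of the transcription factors, only Irf1, which is induced by interferon gamma and drives class I genes, was called, at 1.03 (SE 0.26, adjusted p = 0.0084). It was at 58.4, 111, 54.8 and 52.5 CPM in the libraries of clone 3, so that replicate 2 was far above the others. Without replicate 2 the difference was 0.69 with an adjusted p of 0.146, and without D8 (0.84) or A4 (0.95) it was under the fold limit. Stat2 (0.55), Irf9 (0.39), the sensor Ddx58 (0.89), Bst2 (0.74), which tethers budding viruses, and Parp9 (0.57) had an adjusted p under 0.05 with smaller differences. In all, 15 members higher, Gbp3 and Ifi44 among them, and 0 lower passed that threshold, compared with 1237 and 1372 of 12553 genes. No antigen presentation member was called. Tapbp, at 239.9 CPM in clone 3 against 216 CPM at most in the controls, and Tap1, at 6.68 against 6.19 CPM, were above all controls. H2-K1 was at 263 to 297 CPM in clone 3, inside the control range of 199 to 368 CPM, and Tap2 was at 14.0 CPM against 15.2 CPM in G7. Nlrc5, the activator of class I genes, was at 0.570 to 1.05 CPM against control means of 0.0493 to 0.166 CPM and did not pass the filter.

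Other genes of the pathway were read in the same fit. Of 32 other interferon-stimulated genes that passed the filter in the ciliated controls alone, 8 rose and 0 fell, against 2.38% and 2.19% of genes, and 4 of the 8 are on the study's own list described below. Of the other 4, Lgals3bp had a difference of 2.29 (SE 0.49) and the RNA helicase Ddx60 one of 2.6 (SE 0.6). Another 7 genes entered the test only through clone 3, so they had to differ and add nothing to the 8. Among them were the interferon-inducible GTPases Tgtp1 (5.17, SE 0.46), Tgtp2 (4.94, SE 0.47) and Iigp1 (4.88), where Tgtp1 and Tgtp2 are on that list. Ifi203, on that list too and a member of the DNA-binding Ifi200 family, was at 2.84 CPM in clone 3 and had 0 counts in the 16 control libraries, and was at least 275.5-fold higher against a floor of 3 counts over that group. Of 19 other antigen presentation genes that passed in the controls, 3 rose: H2-M3 (1.87, SE 0.17) and the immunoproteasome subunits Psmb8 (1.83, SE 0.46) and Psmb10 (1.38, SE 0.48). The class II invariant chain Cd74 (2.35, SE 0.31) entered the test through clone 3. Of 26 interferon ligands, receptors and sensors, 1 rose, against 3.64% of all genes: Socs3, a feedback inhibitor of cytokine signalling (1.30). The 11 interferon genes that the study listed from its own calls, Gbp2, Gbp3 and Gbp7 among them, all rose, which is not independent evidence since they were chosen on these libraries. Dcn, a fibroblast marker, was at 29.2 CPM in this clone. Of the same list, Pdgfra was at 0.785 CPM against 0.0478 CPM at most in the ciliated controls. Col1a1 was at 1.17 CPM, inside their range of 0.343 to 2.25 CPM, and Col1a2, Lum and Pdgfrb were near 0. The part of these markers in the result was not tested. With the libraries summed per clone, 1 mutant sample is left, so the spread between mutant clones cannot be measured. The calls in clone 3 rest on its 4 technical replicate libraries, and none is shown to hold beyond this clone.

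The other 2 ciliated mutant clones had no called member. In Wdr34 clone 1, 0 of 34 were higher and 0 lower, against 0.218% and 0.46% of all genes, 5 had an unadjusted p under 0.05 in edgeR, as did 2028 of 12380 genes, and DESeq2 called Rtp4 lower. Rtp4 was at 0.404 CPM there against 0.509 to 2.19 CPM in the controls (-1.76, SE 0.50, adjusted p = 0.068). In the Wdr60 clone, 0 of 34 were higher and 0 lower, against 0.642% and 1.29%, 6 had an unadjusted p under 0.05, as did 2733 of 12456 genes, and DESeq2 called Parp14, Tap1 and Tap2 lower. Tap2 was at 2.03, 2.54, 4.62 and 3.01 CPM in its libraries and 3.44 to 15.2 CPM in the control clones (-1.52, SE 0.46, adjusted p = 0.054). Only Stat2 (-0.52, adjusted p = 0.038, edgeR) passed the threshold on adjusted p, as did 790 of 12456 genes. The shares of all genes that DESeq2 called in these 2 clones are not given here, so its calls are not set against them. Without D8, the lowest control, 3 of 34 members were called lower in the Wdr60 clone, with 256 of 12335 genes called in either direction, and 2 of 34 lower in Wdr34 clone 1, with 81 of 12239 genes. Over the 34 members that passed the filter in the controls alone, medians were -0.22 in the Wdr60 clone, -0.20 in Wdr34 clone 1 and 0.62 in clone 3, from fits that share their controls.

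**Figure D5:**
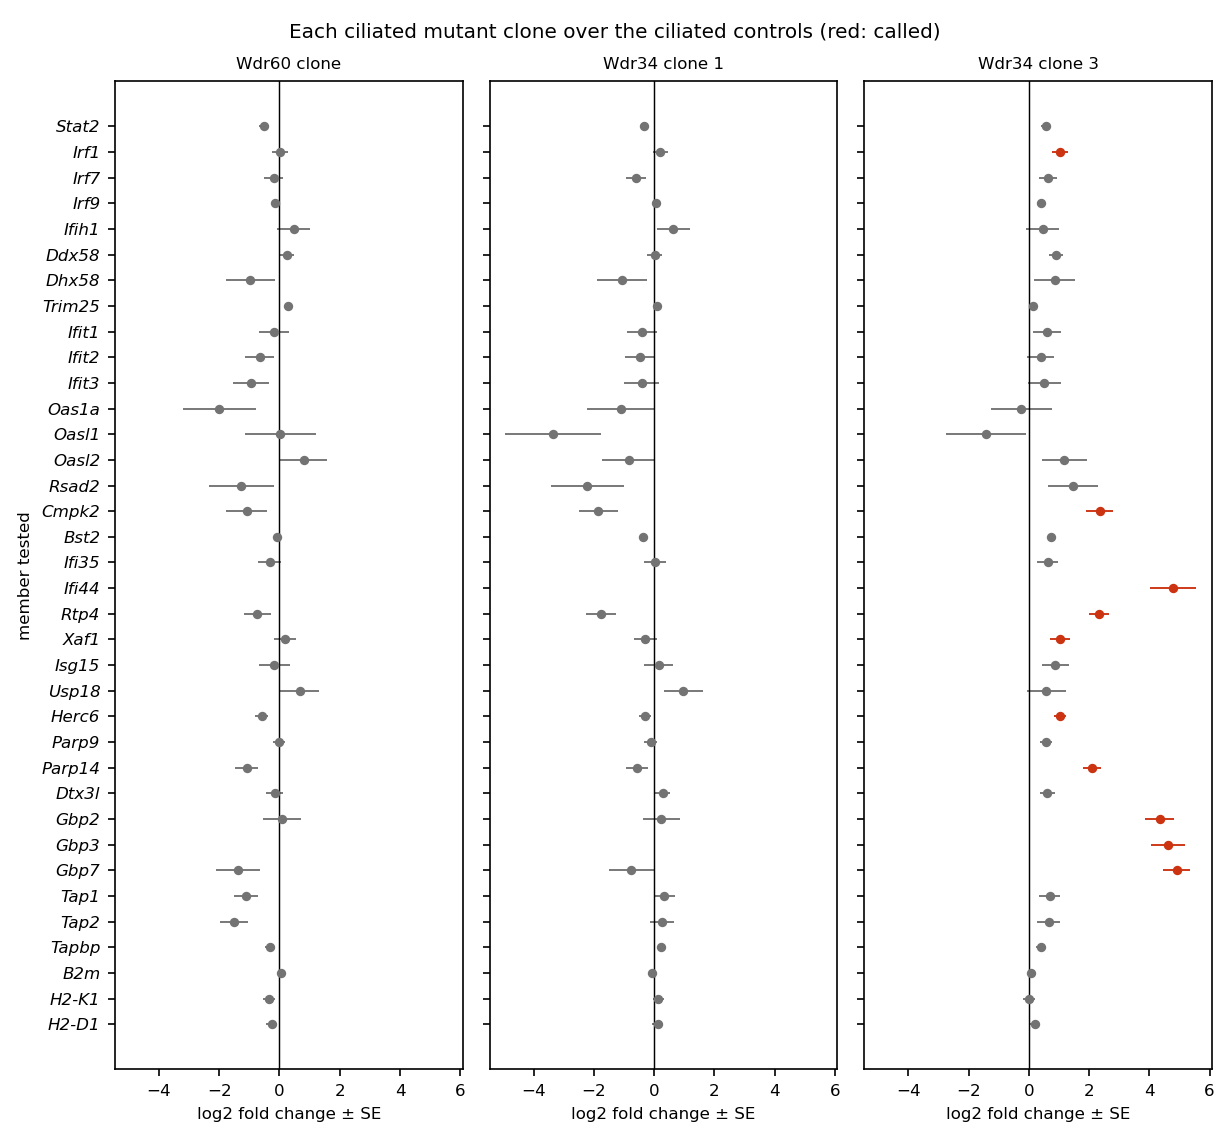
Log2 fold change with its standard error for each member tested in each ciliated mutant clone against the 4 ciliated controls, with called members in red. Clone 3 has 10 called members, led by Gbp7 at 4.91, of which Gbp3 and Ifi44 were tested there alone, and the other 2 clones have 0.

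The effect of the mutants was tested for a difference between the states in 1 model over the 52 libraries. Of 34 members, 2 were called with a more positive effect in ciliated cells and 0 with a more negative one, against 1.12% and 0.0638% of all genes. These were Ifit3 (2.17, SE 0.55, adjusted p = 0.026) and Cmpk2 (2.99, SE 0.84, adjusted p = 0.048). For Ifit3, ciliated mutants were at 261, 381 and 735 CPM and their controls at 189, 223, 369 and 1238 CPM, while the nonciliated mutants were at 34.0 and 39.6 CPM. For Cmpk2 the ciliated mutants were at 0.144, 0.252 and 2.81 CPM, and only clone 3 was above the ciliated controls, which ran from 0.158 to 0.896 CPM. The nonciliated mutants, at 0.108 and 0.197 CPM of Cmpk2, were near the count floor. No member was called when any replicate number was left out, when libraries were summed (edgeR, with 0 at an unadjusted p under 0.05), or without any 1 of ciliated Wdr34 clone 3, either nonciliated mutant, D8 or control 2.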

How the data were processed

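RNA-seq of 52 libraries from 13 clones of Cilia-APEX-IMCD3 cells was analysed from the count tables that the authors deposited, 1 per library, which hold raw counts per gene symbol from featureCounts. Per the submitters' processing notes, the authors used the GRCm38/mm10 build, R v3.4.4 and DESeq2 v1.18.1. Strand and the treatment of multimapping reads are not given in the sources used here.

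Groups were taken from the sample labels. Counts were scaled by TMM and tested with edgeR 4.0.16 (filterByExpr, glmQLFit and glmQLFTest, 2-sided) in R 4.3.3, with libraries as samples as in the study and p-values adjusted by Benjamini-Hochberg over all genes tested. Standard errors are those of the log2 fold change. Alternatives used limma 3.58.1 and DESeq2 1.42.0, other filters and normalization, clones as samples, and left-out libraries or clones. The edgeR step was tested on simulated data, and no result of that test is given or relied on here. Counting error alone is larger at low CPM, where 1 CPM stands for 14.8 to 28.1 counts.

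Members called by edgeR are named in their comparison. Clone values are given for the 16 members with the widest range among those at 1 CPM or more in a clone, and other members shown were added after their values were seen. The members and lists were chosen with earlier results of these data known. No member was dropped. Pairs of libraries of 1 clone differed by more than counting noise (78 pairs, chi-square per degree of freedom 1.99 to 104), and 0 were identical. Promoter sequences and gene positions are from RefSeq.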

Additional observations from a re-analysis of the deposited data

Results flagged for a closer look

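Of 240 groups of 4 values examined, 20 held a value far from the other three by Dixon's test at its 95% critical value, where chance alone gives about 1 in 20. Between clones, Ifit2 in control G7 (502 CPM against 97.7 to 159) and Gbp3 in control H12 (0.393 CPM against 0.0326 to 0.0910) stood apart from the other ciliated controls. Within ciliated clones the libraries were Ifit3 in D8 replicate 3 (395 CPM), Gbp7 in D8 replicate 2 (0.598 CPM), Ifih1 in H12 replicate 1 (23.8 CPM), Usp18 and Irf7 in A4 replicate 1 (4.27 and 5.23 CPM) and Tapbp in G7 replicate 4 (209 CPM). In the ciliated mutants they were Gbp2 in Wdr34 clone 3 replicate 2 (23.2 CPM against 10.6 to 11.2), Gbp2 in the Wdr60 clone replicate 2 (1.27 CPM), and Usp18 replicate 3 (8.51 CPM) and Xaf1 replicate 1 (2.43 CPM) of Wdr34 clone 1. In nonciliated clones they were Rtp4 and Tapbp in the Wdr60 clone replicate 1 (1.16 and 41.2 CPM), Tapbp in AB replicate 1 (82.9 CPM), Tap2 replicate 1 and Tapbp replicate 4 of control 2 (2.93 and 64.3 CPM), Tapbp replicate 1 and Rtp4 replicate 4 of control 3 (53.5 and 0.395 CPM), and Gbp3 in control 1 replicate 4 (0.052 CPM against 0 in the others).

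The mutant effect differed between the states, by the interaction term of the edgeR fit, for Ifit3 (2.17, adjusted p = 0.026) and Cmpk2 (2.99, adjusted p = 0.048). Both were lost when any replicate number was left out.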

How the results depend on the processing

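Counts of called members are given by comparison, without the share of all genes called in each alternative fit. With DESeq2, 4 were called in ciliated mutants, 3 in the ciliated Wdr60 clone, 1 in Wdr34 clone 1 and 4 in the difference between states (Cmpk2, Gbp3, Gbp7 and Ifit3). Keeping genes with at least 1 count in any library gave 4 in ciliated mutants, 1 in the nonciliated Wdr34 clone and 1 in the difference between states. Keeping only genes with at least 10 counts in every library, so that fewer members were tested, gave 0 in ciliated mutants, 1 in nonciliated mutants, 4 between the states in controls, 4 in Wdr34 clone 3, 1 in the nonciliated Wdr34 clone, 1 in the difference between states, and 13 and 10 among ciliated and nonciliated control clones. With no fold limit there were 5 in nonciliated mutants, 22 between states, 1 in the ciliated Wdr60 clone and 15 in Wdr34 clone 3. There were also 5 in the nonciliated Wdr34 clone, and 34 and 31 among ciliated and nonciliated control clones. Summing the libraries of a clone gave 2 between states and 0 in both groups of mutants and in the difference between states. Single mutant clones leave 1 summed sample and are not counted there. The fit by voomLmFit gave 0, 0 and 5 in the grouped comparisons. The cause of these changes was not tested beyond the fewer genes or samples entered.

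Leaving out 1 replicate number gave 0 to 1 in ciliated mutants, 1 to 2 in nonciliated mutants, 9 to 10 between states, 8 to 11 in Wdr34 clone 3, 0 in the nonciliated Wdr34 clone, 0 to 1 in the nonciliated Wdr60 clone, 0 in the difference between states, and 22 to 24 and 20 to 23 among control clones. Leaving out 1 clone gave 0 to 4, 1 to 4 and 7 to 15 in the grouped comparisons, 0 to 3 in the ciliated Wdr60 clone, 0 to 2 in Wdr34 clone 1, 8 to 15 in clone 3, 1 to 4 and 1 to 7 in the nonciliated Wdr34 and Wdr60 clones, and 0 to 6 in the difference between states. Without G7 and control 2, chosen after seeing the data, 3 were called in that difference. These counts too are given without the share of all genes called in each fit, so they are not set against it. The replicate numbers were not taken to pair the samples, since not every correlation of same-numbered deviations was over 0.1: they were 0.069 to 0.507 in ciliated cells, with 3 of 4 over it, and -0.448 to 0.096 in nonciliated cells. With the replicate number as a block, 1 member was called in the nonciliated Wdr34 clone, 1 in the difference between states and 8 in Wdr34 clone 3. Over 27 calls of a single gene in a comparison and 470 alternatives, 368 kept the call, 102 lost it and 0 reversed.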
